A study of Homo sapiens with 7 samples.

Results

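The gene TSSs described here were called by Start-seq although the RNA-seq table listed little mRNA for their gene, with an FPKM (fragments per kilobase of transcript, scaled to the number of mapped fragments) under 1. Each gene TSS was matched to a gene where exactly 1 gene of the table had its 5’ end (the locus start on the plus strand, the locus end on the minus strand) within 1000 nts. Of 10391 called gene TSSs, 6837 had a single matched gene, 1777 had none and 1777 had several, and the last 2 kinds were dropped. The 401 gene TSSs under an FPKM of 1 made up 5.87% of the matched ones and belonged to 400 genes, since CDKL1, a kinase gene, was matched by 2 gene TSSs. The other 6436 matched gene TSSs, at an FPKM of 1 or above, served as the comparison. The members were chosen by FPKM, so their FPKM values are a description and no test was made of them.

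The cells were T47D/A1-2, a derivative of the luminal breast cancer line T47D that overexpresses rat glucocorticoid receptor and carries an integrated MMTV luciferase reporter. The labels call them T-47D. There was 1 growth condition, with no hormone treatment named in the labels: cells grown with 10% serum spent at least 24 hours in 5% charcoal-stripped serum before harvest. TSS calls came from replicate 1 of Start-seq, and the FPKM is the authors' single value over 3 merged RNA-seq replicates, so no value has an error between replicates. Nothing in the results is therefore tested, and the exact Clopper-Pearson 95% intervals given with shares cover counting error only, over gene TSSs that are not independent replicates. The number of reads behind each call is unknown, because the calls carry no counts. The FPKM of all 10 luminal breast markers, among them ESR1 and KRT8, was between 44.1 and 1142, whereas 5 of 6 basal markers, 4 of 4 endothelial markers and 7 of 8 lymphoid and myeloid markers were under 1. Of the mesenchymal markers 5 of 8 were under 1 (highest 8.82), and of the neuronal ones 1 of 4 (highest 16.3).

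Start-seq captures short, capped nuclear RNAs whose 5’ ends mark the nucleotide at which RNA polymerase II began. Many such polymerases pause shortly after initiation, and a polymerase that initiates may or may not go on to yield stable mRNA. Poly-A enriched RNA-seq measures the polyadenylated mRNA that has accumulated, which reflects synthesis, processing and decay together. Promoters often initiate in the antisense direction as well, upstream of the gene TSS (a uaTSS, called within 1000 nts) or downstream of it (a daTSS, called within 2000 nts). A low FPKM beside a called gene TSS therefore describes a gene at which initiation was detected and little polyadenylated RNA was found.

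Sequences upstream of 11 members are printed first, from the GRCh37 (hg19) chromosomes, 5’ to 3’ on the strand of the gene. The first 3 belong to immediate early genes of the FOS and EGR families, shown because their upstream sequence holds CArG boxes, the sequence bound by serum response factor. Capitals mark CArG boxes, TATAA or TATAT starting from −35 to −24, and, where the window reaches it, the base at which the call was made. The FOS window ended before its call at 75745531 and lay at chr14:75745206-75745505 on the plus strand. The FOSB window was at chr19:45970964-45971258 on the plus strand, and that of EGR1 at chr5:137801048-137801172 on the plus strand.
FOS: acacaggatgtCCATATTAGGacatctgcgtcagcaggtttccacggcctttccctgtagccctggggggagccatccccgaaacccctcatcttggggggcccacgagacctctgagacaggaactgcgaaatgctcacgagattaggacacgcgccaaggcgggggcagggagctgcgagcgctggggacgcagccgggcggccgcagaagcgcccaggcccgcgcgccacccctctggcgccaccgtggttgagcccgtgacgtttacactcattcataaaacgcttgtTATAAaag
FOSB: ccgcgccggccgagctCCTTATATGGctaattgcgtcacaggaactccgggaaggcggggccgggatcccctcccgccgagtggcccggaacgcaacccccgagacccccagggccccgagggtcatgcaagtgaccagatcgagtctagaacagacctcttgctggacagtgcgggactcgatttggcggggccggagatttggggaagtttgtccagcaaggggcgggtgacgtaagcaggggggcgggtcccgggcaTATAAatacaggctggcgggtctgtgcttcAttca
EGR1: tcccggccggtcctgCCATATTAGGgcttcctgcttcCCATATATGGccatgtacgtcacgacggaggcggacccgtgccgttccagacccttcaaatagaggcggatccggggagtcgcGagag

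In the FOS sequence the CArG box started at −314 and TATAA at −33, counted from the called base. FOSB had the same pair in the same order, a CArG box at −274 and TATAA at −30. In EGR1 the printed window held CArG boxes at −105 and −83, and 400 nts upstream held 4 in all, the others at −380 and −364. The printed EGR1 window had no TATAA or TATAT in the positions searched.

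The other 8 sequences span −45 to +5 and are shown for their TATAA or TATAT. They lay at chr19:16435592-16435641 (KLF2, plus), chr6:26027507-26027556 (HIST1H4B, minus), chr6:26204793-26204842 (HIST1H4E, plus), chr6:27833047-27833096 (HIST1H2AL, plus), chr12:14924061-14924110 (HIST4H4, minus), chr1:153963193-153963242 (RPS27, plus), chr17:39890894-39890943 (HAP1, minus) and chrX:129402868-129402917 (ZNF280C, minus).
KLF2: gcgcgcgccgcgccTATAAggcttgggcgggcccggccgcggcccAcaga
HIST1H4B: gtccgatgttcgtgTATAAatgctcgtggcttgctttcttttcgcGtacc
HIST1H4E: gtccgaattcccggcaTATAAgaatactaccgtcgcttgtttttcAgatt
HIST1H2AL: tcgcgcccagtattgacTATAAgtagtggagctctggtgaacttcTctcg
HIST4H4: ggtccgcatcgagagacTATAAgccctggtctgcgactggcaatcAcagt
RPS27: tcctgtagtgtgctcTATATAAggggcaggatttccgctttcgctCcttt
HAP1: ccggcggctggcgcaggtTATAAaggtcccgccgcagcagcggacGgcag
ZNF280C: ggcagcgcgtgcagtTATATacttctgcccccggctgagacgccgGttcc

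The 4 histone sequences had TATAA at −31, −29, −28 and −28 in the order printed. The KLF2 sequence, from the gene of a shear-responsive Krüppel-like factor, had it at −31. RPS27, which encodes a protein of the small ribosomal subunit, held TATAT at −30 overlapped by TATAA at −28. A match is a description of these letters and was not tested as a binding site.

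Little mRNA covered a wide range of FPKM. The members' median was 0.325, with quartiles of 0.0789 and 0.669, beside a median of 18.2 at the matched gene TSSs at FPKM 1 or above. For 18 members the gene was listed at 0, which can also be a failed estimate. The lowest value above 0 was 0.00141, at WDR87. Nearest below the threshold were ANTXR2 at 0.996, KIAA1919 at 0.989, KRBA1 at 0.988 and TMEM37 at 0.987, and nearest above it were DOK7, ZNF814 and HEY2, at 1.01 each when rounded.

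The authors searched for gene TSSs only in windows around RefSeq mRNA starts, so a match to annotation was largely set in advance. At FPKM 1 or above, 6412 of the 6436 gene TSSs matched a gene of the GENCODE annotation. Of the 401 members 398 matched one, all 398 on the strand of the TSS, and 392 were protein coding. The nearest annotated transcript start of any gene on the strand lay a median of 15 nts from their gene TSS, with quartiles of 2 and 134 nts. At FPKM 1 or above that distance was 9 nts (1 and 43). The 5’ end of the matched gene's own locus lay a median of 68 nts away (21 and 320) at members, beside 68 nts (28 and 213). Genes with 1 exon in every transcript made up 8.73% of the members (35, interval 6.15% to 11.9%) and 1.46% of the others (1.18% to 1.78%). Among the members other than histones the share was 4.71% (2.82% to 7.35%). By chromosome, the share of matched gene TSSs under an FPKM of 1 was highest on chromosome 6, at 11.5% (39 of 339, 8.31% to 15.4%), which holds the large histone cluster, and lowest on chromosome 16, at 2.87% (9 of 314). Chromosome 19, rich in zinc finger genes, had 7.91% (44 of 556).

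Both kinds of antisense call were less frequent at the members than at the other matched gene TSSs. A uaTSS was called at 132 members, 32.9% (28.3% to 37.8%), beside 55.3% of all matched gene TSSs and 56.7% (55.5% to 57.9%) of those at FPKM 1 or above. A daTSS was called at 65 members, 16.2% (12.7% to 20.2%), beside 31.0% of all matched gene TSSs and 31.9% (30.8% to 33.1%) at FPKM 1 or above. Neither was called at 232 members, 57.9% (52.9% to 62.7%), beside 33.2% of all matched gene TSSs and 31.7% (30.6% to 32.9%) of the others. Both were called at 28 members, 6.98% (4.69% to 9.93%), beside 19.6% of all matched gene TSSs and 20.3% (19.4% to 21.3%) of the others. The intervals of members and others were apart for each of these shares. An antisense call, like a gene TSS call, needs enough reads at 1 position. Read depth at the members' gene TSSs is not in the deposited calls, so its part in these shares was not tested. The authors also filtered out daTSSs that could be starts of other genes or uaTSSs of uncalled starts. The part of those filters in the daTSS share was not tested either.

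The share with a uaTSS was also lower at lower FPKM among the members themselves. It was 21.7% (13.8% to 31.6%) for the 92 members above 0 and under 0.1, 32.0% (24.6% to 40.1%) for the 150 from 0.1 to under 0.5, and 43.3% (35.0% to 51.9%) for the 141 from 0.5 to under 1. The last value lay beside the 42.9% (36.9% to 49.1%) of the 268 gene TSSs from 1 to under 2, and above that range the share continued upward to 65.7% (61.7% to 69.6%) at 100 or above. For the daTSS, the same member groups had 6.52% (2.43% to 13.7%), 18.0% (12.2% to 25.1%) and 20.6% (14.2% to 28.2%). From 1 to under 2 the daTSS share was 30.6% (25.1% to 36.5%), and it stayed between 30.6% and 33.2% in every higher group. The uaTSS share thus varied with FPKM over the whole range, and the daTSS share mainly below an FPKM of 1. Among the 18 members listed at 0, 3 had a uaTSS and 3 had a daTSS, and none had both.

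**Figure D1:**
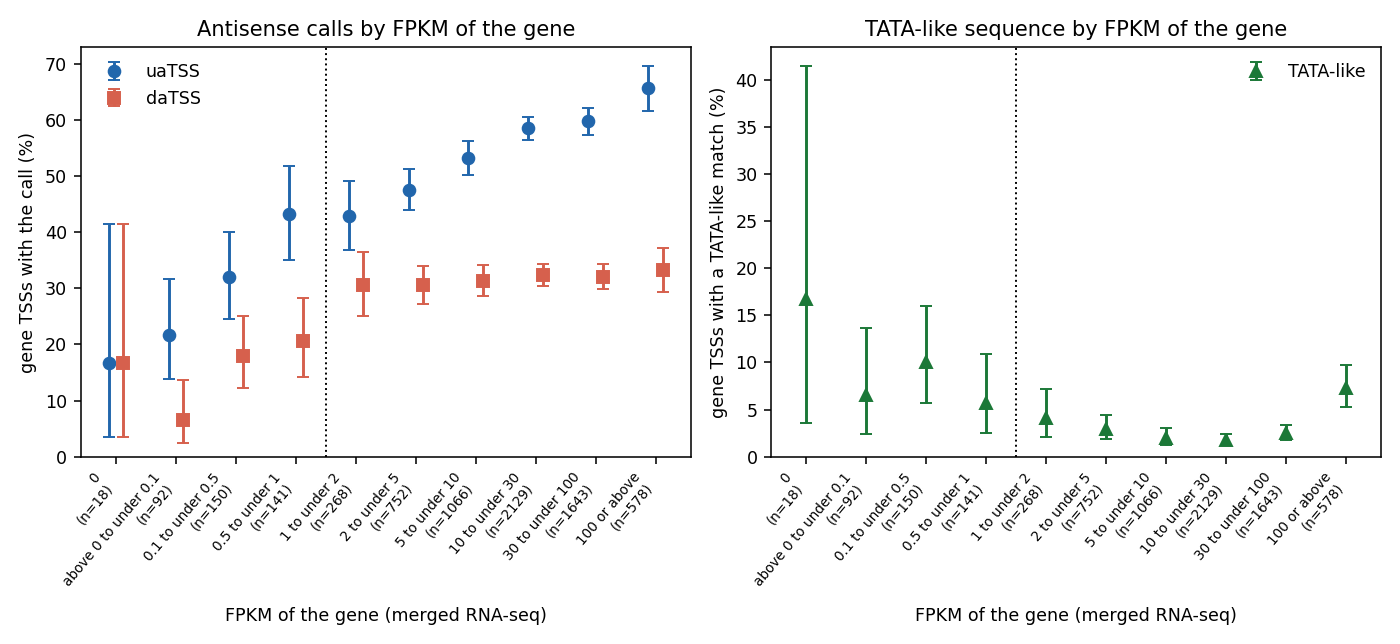
Shares of matched gene TSSs in groups of FPKM (x axis), with a uaTSS or a daTSS on the left (y axis, percent) and with TATAA or TATAT from −35 to −24 on the right (y axis, percent). Points are shares, bars are exact 95% intervals, and the dotted line divides members (left) from the other gene TSSs. The uaTSS share goes from 21.7% above 0 and under 0.1 to 65.7% at 100 or above, the daTSS share stays between 30.6% and 33.2% from an FPKM of 1 upward, and TATAA or TATAT is least frequent in the middle groups.

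Where antisense TSSs were called at members, the uaTSSs lay about as far from the gene TSS as elsewhere, and where the daTSSs lay depended on the join window. The gene TSS-uaTSS distance had a median of 190 nts (quartiles 94.25 and 305.8, n = 132), beside 203 nts (128.2 and 333, n = 3650) at FPKM 1 or above. The gene TSS-daTSS distance had a median of 437 nts (200 and 764, n = 65), beside 506.5 nts (318 and 797.5, n = 2054). Of the members' daTSSs, 17 (26.2%) lay within 200 nts of the gene TSS and 4 (6.15%) beyond 1000 nts, beside 10.3% and 15.5% at FPKM 1 or above. With a join window of 100 nts the median gene TSS-daTSS distance was 648 nts (n = 36) beside 521 nts (n = 1185), the reverse order, and 4 of the 36 (11.1%) lay within 200 nts, beside 83 of the 1185. The shortest gene TSS-uaTSS distances were 1 nt at KLF12, a Krüppel-like factor gene, and 8 nts at C8orf86. The longest were 903 nts at CYP46A1, which encodes the cholesterol 24-hydroxylase of neurons, and 941 nts at NFKBID, whose daTSS was 997 nts downstream. The shortest gene TSS-daTSS distances were 7 nts at the kinase gene NRK and 20 nts at ACY3, and the longest were 1781 nts at HIST1H1D and 1815 nts at FOSB. The NRK and ACY3 gene TSSs were called at −723 and −180 nts from the 5’ ends of their loci. Of the CDKL1 gene TSSs, the one at 50863628 on the minus strand of chromosome 14 had a uaTSS 133 nts upstream, and the one at 50864211 had neither call.

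Other called gene TSSs lay near members about as often as near all matched gene TSSs. At least 1 other called gene TSS lay within 5000 nts of 61 members, 15.2% (11.8% to 19.1%), beside 17.8% of all matched gene TSSs. A divergent gene TSS within 1000 nts upstream was called at 33, 8.23% (5.73% to 11.4%), beside 9.89% of all matched gene TSSs and 9.99% (9.27% to 10.7%) of those at FPKM 1 or above, with overlapping intervals. With a join window of 100 nts these shares were 13.6% of 242 members and 11.9% of 3905 others, so the order of members and others depended on the window. For 29 of the 33 the gene across the promoter had a single match, and all 29 of those genes were at FPKM 1 or above (median 29.7, range 1.25 to 214). Among gene TSSs at FPKM 1 or above the same held for 483 of 512 partners (94.3%, median 19.1). Leaving out the divergent ones, a uaTSS was called at 125 of 368 members, 34.0%, and at 61.4% of the 5793 others.

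In these pairs the member and its neighbour could differ by orders of magnitude in FPKM. SPTBN4, a spectrin gene of axons, was at 0.846 opposite BLVRB, the flavin reductase gene, at 214. MORN5 at 0.252 faced NDUFA8, OSCAR at 0.317 faced NDUFA3 and AKAP3, a sperm sheath gene, at 0.0196 faced NDUFA9, each partner a subunit of mitochondrial complex I, at 145, 114 and 29.8. CATSPERD, part of the sperm calcium channel, was at 0.00533 opposite LONP1, a mitochondrial protease gene, at 35.7. EXD1 was at 0.189 opposite CHP1 at 103. These pairs are examples chosen after their values were seen.

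**Figure D2:**
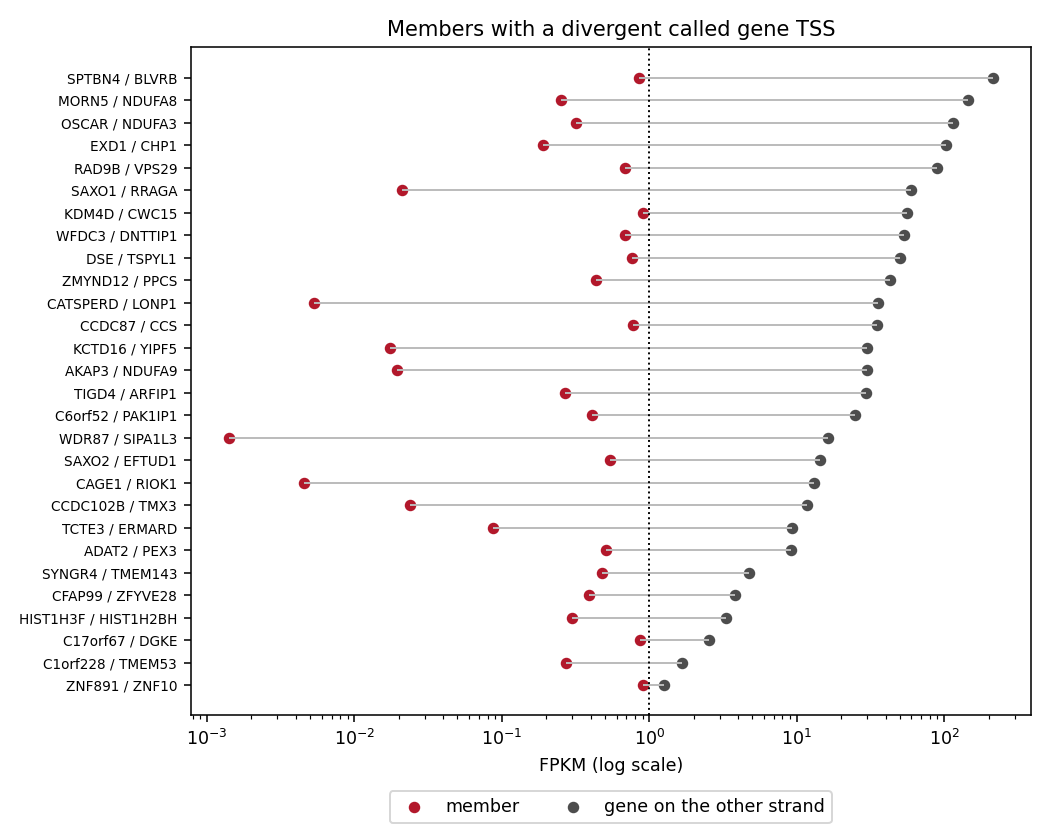
FPKM on a log scale (x axis) of 28 of the 29 members (red) and of the gene whose called TSS lies divergently within 1000 nts upstream (grey), 1 pair per row. The dotted line marks an FPKM of 1. All partners drawn lie at FPKM 1 or above, from 1.25 to 214.

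Sequence around the members' TSSs was GC rich, though less so than elsewhere. In the 100 nts centred on the TSS the mean GC content was 65.0% (SD 9.95, n = 401), beside 67.8% (SD 8.61, n = 6436) at FPKM 1 or above. Over 50-nt bins it was 65.4% at the members' TSSs and 67.6% at the others, and 1000 nts downstream it was 52.2% and 49.1%. The members' profile was thus lower at the TSS and higher at the downstream end. A computed CpG island covered 280 members, 69.8% (65.1% to 74.3%), beside 84.8% of all matched gene TSSs and 85.8% (84.9% to 86.6%) of the others. Where there was an island, its median length was 1064 bp at the members and 902 bp at the others.

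Antisense calls were also compared within and outside islands. Among the 280 in an island, 36.4% (30.8% to 42.4%) had a uaTSS and 13.6% (9.79% to 18.1%) a daTSS, beside 59.1% and 32.3% of the 5519 others in an island. Among the 121 members outside an island, 24.8% (17.4% to 33.5%) had a uaTSS and 22.3% (15.2% to 30.8%) a daTSS, beside 42.3% (39.1% to 45.6%) and 29.4% (26.5% to 32.5%) of 917 others. Within islands as well as outside them, the members' uaTSS share was below that of the others. For the daTSS outside islands the intervals overlapped.

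Core promoter letters differed in 1 respect. TATAA or TATAT starting from −35 to −24, the usual place of the TATA box that positions the polymerase, was found at 32 members, 7.98% (5.52% to 11.1%), beside 3.03% of all matched gene TSSs and 2.72% (2.34% to 3.15%) of those at FPKM 1 or above. The 578 gene TSSs at FPKM 100 or above had nearly the members' share, 7.27% (5.29% to 9.70%), and with a join window of 100 nts the members' share was 14.5% beside 3.23%. Histones held 15 of the 32, and without histones the share was 4.45% (17 of 382, 2.61% to 7.03%), an interval that overlapped that of the others. The remaining 17 included FOS, FOSB and KLF2, the neuropeptide gene GAL, the Notch ligand gene DLL1, the hairy-related repressor genes HES7 and HELT, and PGC, which encodes a gastric protease precursor. An initiator-like start, with A as the called base, C before it and either A or T at +3, was found at 93 members, 23.2% (19.1% to 27.6%), beside 19.0% of all matched gene TSSs and 18.8% (17.8% to 19.7%) of the others, with overlapping intervals.

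Over the 400 nts upstream, motifs were searched on both strands. CArG boxes were found at 7 members, 1.75% (0.705% to 3.56%), beside 1.52% of all matched gene TSSs, and TGACGTCA, the cAMP response element, at 17, 4.24% (2.49% to 6.70%), beside 3.69%. CCAAT was found at 175 members, 43.6% (38.7% to 48.7%), beside 43.7%. GGGCGG, the GC box, was found at 277, 69.1% (64.3% to 73.6%), beside 77.6% of all matched gene TSSs and 78.1% (77.1% to 79.1%) of the others. Of these 4, only the GC box had an interval apart from that of the other gene TSSs.

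Members were counted in 19 gene lists, which took in 132 of them and left 269 in no list. Against the 5.87% over all matched gene TSSs, the share under an FPKM of 1 was 73.1% of replication-dependent histones (19 of 26, 52.2% to 88.4%), 44.4% of cytokines and chemokines (4 of 9), 29.4% of glucocorticoid-responsive genes (5 of 17, 10.3% to 56.0%) and 27.6% of ion channels and neurotransmitter receptors (8 of 29, 12.7% to 47.2%). It was 25.4% of developmental transcription factors other than HOX genes (17 of 67, 15.5% to 37.5%), 22.6% of G protein-coupled receptors (7 of 31, 9.59% to 41.1%) and 18.8% of immediate early genes (6 of 32, 7.21% to 36.4%). Each of these had an interval above 5.87%, and so did growth factors and their receptors (8 of 45, 17.8%). The interval of axonemal and ciliary genes (12 of 96, 12.5%) was above it too, though that list includes CCDC symbols whose ciliary role was not checked. For C2H2 zinc finger genes the lower bound lay just above 5.87%, with a share of 8.72% (30 of 344, 5.96% to 12.2%). The interval of solute carriers held 5.87%, at 8.55% (10 of 117, 4.17% to 15.2%). Ribosomal protein genes had 1 member among 37, and cadherins and protocadherins had 0 of 10.

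Most genes of some lists had no part in these counts, because they were not matched to a called gene TSS. The FPKM table lists 621 G protein-coupled receptor genes, of which 575 were under 1, and 129 cytokine and chemokine genes, of which 121 were. The 7 receptors and 4 cytokines among the members were thus a small share of the genes with little mRNA.

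Histone genes were the family with the largest share. Replication-dependent histone genes are transcribed mainly in S phase, and their mRNAs end in a stem-loop rather than a poly(A) tail, whereas the RNA-seq libraries were poly-A enriched. Many histone genes are near-identical copies, so that the FPKM of each depends on how shared reads were assigned, which is not given in the sources used here. The part of library type and copy number in these values was not tested. Each core histone class and the linker histones had members among the 19.

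Of the H4 genes, HIST1H4E was at 0.869 with a uaTSS 373 nts upstream and a daTSS 810 nts downstream, and HIST1H4B was at 0.685 with calls at 130 and 765 nts. HIST4H4, outside the chromosome 6 cluster, was at 0.214 with calls at 836 and 959 nts. HIST1H4A was at 0.189 with a uaTSS at 288 nts, HIST1H4D was at 0.0649 with neither call, and HIST1H4C was listed at 0 with a uaTSS at 198 nts. The H4 members thus ran from 0 to 0.869. Their called start and their FPKM under 1 were set by how members were chosen.

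Among H3 genes, HIST1H3B was at 0.506 and HIST1H3C at 0.396, with daTSSs 866 and 1673 nts downstream and no uaTSS. HIST1H3F was at 0.301, HIST1H3A at 0.130 and HIST1H3J at 0.126, and HIST1H3I and HIST3H3 were listed at 0. HIST1H3I still had a daTSS, 236 nts downstream. The H2A and H2B members were HIST1H2AL at 0.341, HIST1H2AB at 0.0414 and HIST1H2BB at 0.147. HIST1H2AL had both calls, at 202 and 435 nts. The linker histone members were HIST1H1E at 0.449, HIST1H1B at 0.162 and HIST1H1D at 0.124. The 7 matched histone genes at FPKM 1 or above ran from HIST1H2BF at 2.65 to HIST1H1C at 42.6 and HIST1H2BD at 61.1.

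More histone members had a daTSS than a uaTSS, whereas over all members the uaTSS was the more frequent. A daTSS was called at 11 of 19, 57.9% (33.5% to 79.7%), and a uaTSS at 8 of 19, 42.1% (20.3% to 66.5%), beside 31.0% and 55.3% of all matched gene TSSs. At HIST1H4B, HIST1H4E, HIST4H4, HIST1H3B, HIST1H3C and HIST1H1D the daTSS lay beyond the 3’ end of the gene's own locus. At HIST1H2BB it lay between the called TSS and the 5’ end of the locus. Of the 7 histone genes at FPKM 1 or above, 2 had a daTSS and 4 a uaTSS, with intervals that overlapped those of the members. Without histones the members' daTSS share was 14.1% (10.8% to 18.0%). TATAA or TATAT was found at 15 of 19 histone members, 78.9% (54.4% to 93.9%), and at 4 of the 7 histone genes at FPKM 1 or above. CCAAT was in the 400 nts upstream of 15 of 19 histone members and of each of the 7 histone genes at FPKM 1 or above. It was found at 43.7% of all matched gene TSSs.

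Immediate early genes, which are induced within minutes by serum, growth factors or stress, had 6 members. SIK1, a salt-inducible kinase gene called at 44847008 on the minus strand of chromosome 21, was at 0.919 with a uaTSS 374 nts upstream, and KLF2 was at 0.787 with one at 147 nts. FOSB was at 0.779 with a daTSS 1815 nts downstream. FOS, which encodes an AP-1 subunit and is also on the estrogen-responsive list as that list's only member, was at 0.489 with neither call. EGR1, a zinc finger factor gene, was at 0.201 with a uaTSS 829 nts upstream, and ARC, a gene of synaptic plasticity that the naming rule did not select, was at 0.139 with neither. The other 26 matched immediate early genes ran from DUSP2 at 1.24 to RHOB at 123.

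The CArG boxes printed above belonged to 3 of these 6: EGR1, FOS and FOSB held them in the 400 nts upstream, and ARC, KLF2 and SIK1 did not. Of the 26 other immediate early genes 2, DUSP5 and SRF, held one, beside 1.52% of all matched gene TSSs. TATAA or TATAT was found at 3 of the 6 and at 10 of the 26 other immediate early genes, beside 3.03% of all matched gene TSSs. A uaTSS was called at 3 of the 6 and 17 of the 26, beside 55.3% of all matched gene TSSs. A daTSS was called at 1 of the 6 and 14 of the 26, beside 31.0%. With 6 members such counts are imprecise, and no difference was tested.

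**Figure D3:**
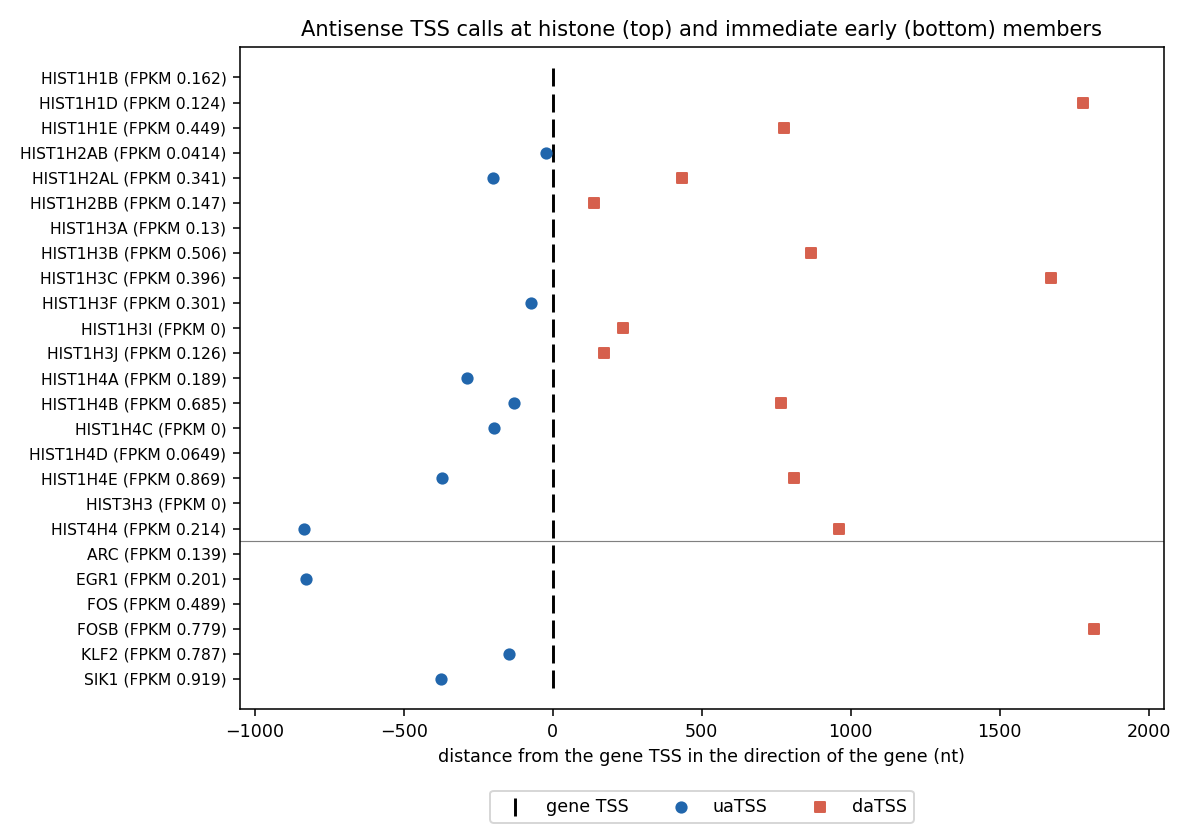
Distance in nts (x axis) of uaTSS calls (blue circles, negative) and daTSS calls (red squares, positive) from the gene TSS (black dashes at 0) for the 19 histone members (above the line) and the 6 immediate early members (below it), with the FPKM of each gene on the y axis. At histones the daTSSs lie from 139 to 1781 nts downstream of the gene TSS, in some cases beyond the 3’ end of the gene. FOS and ARC have neither call.

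Glucocorticoid-responsive genes were listed because the cells overexpress the receptor and were kept in serum that charcoal depletes of steroids. Of the 5 members, 4 were IRS2, an insulin receptor substrate gene, at 0.457 with a uaTSS at 478 nts, MAOA, the monoamine oxidase A gene, at 0.456 with a daTSS at 437 nts, BIRC3, an inhibitor of apoptosis gene, at 0.217 with a uaTSS at 145 nts, and FGF18 at 0.0136 with neither. The 17 matched genes of the list had a median of 5.24, with METTL7A the highest at 88.8 and NFKBIA, which encodes an inhibitor of NF-kappa B, at 74.2. DUSP1 at 2.05 and KLF9 at 2.66 were low but not members.

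C2H2 zinc finger genes, many of them encoding KRAB repressors, were the largest list by number, with 30 members. A uaTSS was called at 20 of 30, 66.7% (47.2% to 82.7%), beside 57.0% (51.3% to 62.6%) of the 314 zinc finger genes at FPKM 1 or above. A daTSS was called at 4 of 30, 13.3% (3.76% to 30.7%), beside 29.3% (24.3% to 34.7%), with overlapping intervals. ZNF442 at 0.893 had calls at 164 and 396 nts, ZNF555 at 0.769 at 78 and 260 nts and ZNF438 at 0.623 at 215 and 673 nts. ZNF230, at 0.980, had a uaTSS at 141 nts. The uaTSS share of zinc finger members had an interval above the 32.9% of all members, to which they belong. That interval held the 55.3% of all matched gene TSSs. Their daTSS interval ended just below the 31.0% of all matched gene TSSs.

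Developmental transcription factors gave 17 members, of which 9 had neither call, 52.9% (27.8% to 77.0%), an interval that held the 57.9% of all members. Among the 50 such genes at FPKM 1 or above 9 had neither, 18.0% (8.58% to 31.4%), with overlapping intervals. A uaTSS was called at 5 of 17, 29.4% (10.3% to 56.0%), and a daTSS at 4 of 17, 23.5% (6.81% to 49.9%), beside 60.0% (45.2% to 73.6%) and 54.0% (39.3% to 68.2%) of the 50 such genes at FPKM 1 or above, with overlapping intervals. Over all matched gene TSSs, 33.2% had neither call, 55.3% a uaTSS and 31.0% a daTSS. Each of the members' intervals held these values. The intervals of the 50 genes lay above the daTSS value and below the value for neither. OTX1, a gene of brain patterning, was at 0.973 with a uaTSS at 372 nts, HEY1, a Notch target, at 0.587 with one at 901 nts, and ISL2, a gene of motor neurons, at 0.218 with one at 311 nts.

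Members of the signalling lists are given beside the 57.9% of all members and the 33.2% of all matched gene TSSs with neither antisense call. Of 8 growth factor and receptor members 6 had neither, among them FGF22 at 0.428 and SEMA3G at 0.401. WNT4, a progesterone-regulated ligand of the breast, was at 0.924 with a daTSS at 925 nts. Its gene TSS was called at −766 nts from the 5’ end of its locus. The plexin gene PLXNA2 was at 0.185 with a uaTSS at 225 nts. The list did not take in the growth factor genes HBEGF, at 0.326 with a uaTSS at 318 nts, and BTC, at 0.227 with a daTSS at 724 nts. Of 4 cytokine members 3 had neither: CCL22 at 0.774, IL11 at 0.470 and IL6R, a receptor that the list's symbol pattern also takes in, at 0.597. The exception was IL7, listed at 0, with a daTSS 764 nts downstream. At FPKM 1 or above, 15 of 37 growth factor and receptor genes and 2 of 5 cytokine genes had neither, and the intervals of both lists' members (34.9% to 96.8% and 19.4% to 99.4%) held the share of all members. Only the cytokine interval also held the share of all matched gene TSSs. Of 33 interferon-stimulated genes 2 were members, APOL6 at 0.375 with a daTSS at 440 nts and IFI44L at 0.470 with neither.

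Of 8 ion channel members 7 had neither call. KCNG3, at 0.123, had a uaTSS at 165 nts, and the potassium channel gene KCNF1 and the sodium channel gene SCN8A were at 0.787 and 0.367. Of 7 G protein-coupled receptors 6 had neither, among them GPR63 at 0.645, GPR20 at 0.221 and the histamine receptor gene HRH3 at 0.193. The 3 extracellular matrix members, COL4A6 at 0.0737, ADAMTS17 at 0.0283 and COL26A1 at 0.0259, also had neither. At FPKM 1 or above, 9 of 21 ion channel, 11 of 24 receptor and 10 of 18 matrix gene TSSs had neither call, beside 33.2% of all matched gene TSSs. The members' intervals (47.3% to 99.7%, 42.1% to 99.6% and 29.2% to 100%) overlapped those of these genes and held the 57.9% of all members.

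The share under an FPKM of 1 had an interval that held the 5.87% of all matched gene TSSs for solute carriers. For axonemal and ciliary genes the interval lay above it. Among 10 solute carrier members, SLC43A1 at 0.864 had a uaTSS at 121 nts, and SLC16A9 at 0.825, SLC37A2 at 0.488 and SLC12A5, a potassium chloride cotransporter gene of neurons, at 0.456 had daTSSs at 1376, 76 and 183 nts. Among 12 axonemal and ciliary members, RSPH4A, a radial spoke gene, was at 0.669 with a uaTSS at 188 nts and CCDC82 at 0.492 with one at 24 nts. CCDC184 was at 0.115 with a daTSS at 353 nts, and CCDC83 at 0.0237 with a uaTSS at 237 nts. The list takes in genes with CCDC symbols such as these, and their ciliary role was not checked. Of the 12 axonemal and ciliary members 8 had neither call, 66.7% (34.9% to 90.1%). That interval held the 57.9% of all members and lay above the 33.2% of all matched gene TSSs. Among the genes of this list at FPKM 1 or above, 29 of 84 had neither, 34.5% (24.5% to 45.7%).

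RPS27 was the only ribosomal protein gene among the members, at 0.425 with a uaTSS 71 nts upstream. The other 36 matched ribosomal protein genes had FPKM values from 4.43 to 907, with a median of 217. Ribosomal protein genes have many processed pseudogenes, and how reads shared with them were counted is not given in the sources used here, so the value for RPS27 is uncertain. The 2 members with non-coding symbols, LOC100130451 at 0.0724 and LOC388780 at 0.0571, had neither call. Gene TSSs were searched for only around RefSeq mRNA starts, which limited this list in advance. The HOX list, with 2 matched gene TSSs, and the metallothionein list, with 1, had no member.

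Outside the lists, several members chosen after their values were seen have well-known functions. BCL2, the apoptosis inhibitor, called at 60987437 on the minus strand of chromosome 18, was at 0.181 with a uaTSS 36 nts upstream and a daTSS 34 nts downstream. The BCL2 call lay at −824 nts from the 5’ end of its locus, outside the 100-nt join window. The adhesion molecule gene ICAM1 was at 0.598 with calls at 103 and 200 nts. SNAI1, a repressor of epithelial genes, was at 0.528, SOCS1, an inhibitor of cytokine signalling, at 0.432, and HBEGF, an EGF receptor ligand, at 0.326, each with a uaTSS, at 272, 128 and 318 nts. HSPA6, a stress-inducible HSP70 gene, was at 0.325 with a uaTSS at 616 nts, and PMAIP1, a p53 target that promotes apoptosis, was at 0.884 with a daTSS at 919 nts. MITF at 0.425, PPARGC1A at 0.566 and PDK4 at 0.201, which encode a melanocyte factor, a coactivator of mitochondrial biogenesis and a pyruvate dehydrogenase kinase, had neither call. Antisense calls were thus present at some of these genes and absent at others.

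For the 18 members listed at 0, initiation was called and no FPKM above 0 was estimated. With a uaTSS were HIST1H4C, MFAP3L and C8orf86, and with a daTSS were HIST1H3I, IL7 and SLC9C1. The other 12 had neither: HIST3H3, SLCO4C1, GDNF, PGC, MOGAT2, PLA2G1B, FGF9, PELI2, NUTM1, SOX8, MAPK4 and DEFB123. GDNF and FGF9 encode secreted growth factors, PLA2G1B a pancreatic phospholipase and DEFB123 a defensin. A computed island covered 8 of the 18, 44.4% (21.5% to 69.2%), beside 69.8% of all members and 84.8% of all matched gene TSSs.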

How the data were processed

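Start-seq gene TSS, uaTSS and daTSS calls of replicate 1 and RNA-seq of T47D/A1-2 cells were used. MNase-seq, FAIRE-seq and Start-seq replicate 2 were not analysed here. The authors removed reads of mean quality under 20, trimmed adapters with cutadapt 1.2.1, aligned Start-seq reads to hg19 with Bowtie 0.12.8 and called a TSS where at least 5 read 5’ ends fell on 1 nucleotide. Gene TSSs were searched for only around RefSeq mRNA starts. A daTSS within 1000 nts of an annotated start on its strand was dropped. A second filter dropped a daTSS where nearby reads on the gene's strand reached a set fraction of those at the gene TSS. The deposited calls are single positions, and their deposited score is 0 throughout, so depth per call is unknown. The deposited FPKM values were estimated by the authors with TopHat2 2.0.4 and Cufflinks 2.2.1 after duplicates were removed and 3 replicates merged. The table had 0 columns of per-sample values. The names of tools come from the methods and the submitters' processing notes.

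The calls were joined to the FPKM table by position and to each other by their shared identifier. GRCh37 gave the sequence, and the GENCODE annotation lifted to that build gave the transcripts. CpG islands had to exceed 200 bp and a CpG ratio (observed over expected) of 0.6, with GC content not under 50%. Python 3.11.15, numpy 2.4.6, scipy 1.17.1, pandas 2.3.3, numba 0.67.0, pysam 0.24.0 and matplotlib 3.10.9 were used. On simulated data the join and the motif windows were right in 100% of cases and both island edges in 99.5%. With 1 library of calls and 1 merged FPKM column no test was possible.

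The members, gene lists and naming rule were chosen with earlier results of these data known. The rule named up to 4 members per list (both calls first, then 1 call, then by FPKM), members at 0 with both calls (none), 4 genes on either side of the threshold, up to 8 members with TATAA or TATAT by FPKM, those with the shortest and longest distances, and genes with several member TSSs. Other genes are named to account for a list or, where stated, after their values were seen. Alternatives were an FPKM under 0.1, leaving out genes at 0, a join window of 100 nts, annotated strand, the nearest gene, 1 TSS per gene, isolated TSSs, daTSSs within 1000 nts, and other windows, islands and motifs. Joining through the annotation, leaving out histones and the 400-nt motif window were added after the data were seen. A few genes and a sequence that the rule named are not reported here.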

Additional observations from a re-analysis of the deposited data

How the results depend on the processing

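Of 104 recomputed values, 89 stayed within the interval of the reported value or, for counts, within 1.5 times of it, and 15 moved. With an FPKM under 0.1 there were 110 members, of which 20.9% had a uaTSS, 8.18% a daTSS, 72.7% neither and 61.8% an island. With a join window of 100 nts there were 242 members, the median gene TSS-daTSS distance was 648 nts (longer than at the other gene TSSs, not shorter), and 13.6% had a divergent gene TSS and 14.5% TATAA or TATAT. Joined through the annotation there were 629 members. Without other gene TSSs within 5000 nts 0 members had a divergent one, by construction. The mean GC content over 1000 nts was 61.9%, stricter islands covered 60.1% and a pyrimidine at −1 with a purine at +1 was found at 65.3%, each a different measure by construction. TATAA or TATAT without histones was at 4.45%. The cause was not tested for the other moves. Joining through the annotation and leaving out histones were chosen after seeing the data. Over 8 ways of joining or choosing members, the members' share minus that of genes at FPKM 1 or above ran from −28.5 to −23.6 percentage points for the uaTSS, −19.1 to −12.1 for the daTSS, −16.8 to −14.9 for islands and 1.79 to 11.2 for TATAA or TATAT, with no change of sign.

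No paired analysis was possible because the samples differ by assay, not by condition, and the FPKM column is merged. Leaving out each replicate was not run for the same reason. Depth limits what an absent antisense call means, since a call below the read threshold is not listed. A daTSS removed by the authors' filters is not listed either.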

Other observations

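The dropped gene TSSs held further genes with little mRNA. Among the 1777 gene TSSs with several genes in the window, 76 had every gene under an FPKM of 1 and 1202 had some but not all under it. When gene TSSs were joined through the nearest annotated transcript start instead, a choice made after the data were seen, 10224 had an FPKM and 629 of them were under 1. Of these, 394 were members and 235 were not, and 7 members were no longer under 1. The 235 had a uaTSS in 61 cases (26.0%) and a daTSS in 43 (18.3%). In that join 28 of 47 matched replication-dependent histone gene TSSs were under 1, and so were 6 immediate early ones.

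Over the whole FPKM table, 13904 of 26175 genes were under 1 and 7888 were listed at 0.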
